A study of Mus musculus with 2 samples.

Results

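Oxidative phosphorylation genes encode the nuclear subunits of the mitochondrial respiratory chain (complexes I to IV), cytochrome c and the ATP synthase (complex V). They were taken here as the genes whose platform symbol starts with Ndufa, Ndufb, Ndufc, Ndufs, Ndufv, Uqcr, Cox4 to Cox8 or Atp5, plus Sdha, Sdhb, Sdhc, Sdhd, Cyc1 and Cycs, without the assembly factors named Ndufaf. This gave 81 genes, read by 154 probe sets, of 12393 genes on the array. By complex, 33 belonged to complex I, 4 to complex II, 9 to complex III, 17 to complex IV and 17 to complex V, and Cycs encodes the mobile carrier. Ndufa4, which carries a complex I name, was placed with complex IV, where its protein is now known to sit. Sdhaf genes were treated as assembly factors.

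Messenger RNA was measured on Affymetrix mouse arrays in RAW 264.7 cells, a mouse macrophage-like line. One treatment combined adenosine (300 uM) and IFN-gamma (1000 U/ml), and the other was IFN-gamma (1000 U/ml) without adenosine, both for 4 h. RNA of 2 experiments was pooled for each treatment, so each treatment is 1 array of 1 pool and IFN-gamma is shared by both. No test is possible with 1 array a treatment, no p-value is given, and all counts below are counts by size of the difference.

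Complex I oxidizes NADH and complex II oxidizes succinate, and both pass electrons through ubiquinone to complex III. Cytochrome c carries them on to complex IV, which reduces oxygen, and complex V uses the proton gradient made by complexes I, III and IV to form ATP. Some subunits of complexes I, III, IV and V are encoded by mitochondrial DNA and are not among these genes. In mouse macrophages, activation by IFN-gamma together with bacterial products is known for a shift from respiration towards glycolysis, and complexes I and II are known as sources of reactive oxygen species.

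The adenosine array was dimmer over most of its range, with a median deposited signal of 15.2 against 45.9 on the IFN-gamma array. Ratios were therefore centred on their median, -1.50 on the log2 scale, and signals of the adenosine array are printed after multiplication by 2.82. The 18 spiked-in control probe sets gave -0.53 ± 0.19 before centring (median and SD of the log2 ratio over these controls), so every direction below is relative to the array median and not absolute. A gene was counted as measured if either signal reached 44.0, the 50th percentile of scaled signals, and lower signals were raised to that floor. The brightest probe set of each gene was used. Probe sets of shared targets, left out in 1 setting below, are those whose names end in _a_at, _s_at or _x_at. Of the members' 135 measured probe sets, 39 were of the a kind, 15 of the s kind and 26 of the x kind. All 15 macrophage markers were measured, none of 12 fibroblast, endothelial and epithelial, 10 granulocyte and mast cell, 3 erythroid or 8 muscle and heart markers was, and of 9 T and B cell markers only Zap70 was (97.0 with adenosine against 45.9).

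Messenger RNAs of oxidative phosphorylation lay close to the array median with adenosine, and few lay far below it. Of the 81 genes, 77 were measured, and the median of their log2 ratios, the adenosine array over the IFN-gamma array, was 0.17, with the middle 50% between -0.04 and 0.34. Over all 6818 measured genes the median was -0.08, with the middle 50% between -0.52 and 0.30. None of the 77 was at least 2-fold higher, where 4.52% of all measured genes were. Only Ndufc1 was at least 2-fold lower, where 10.1% of all measured genes were. At 1.5-fold, 10 of the 77 (13.0%) were higher, against 12.9% of all measured genes, and 2 of the 77 (2.60%) were lower, against 21.8%. Above 0 lay 56 of the 77 (72.7%), against 44% of all measured genes.

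Most of these genes are bright, and bright genes as a whole scattered less on these arrays. The comparison was therefore repeated with 1005 other genes whose mean signal lay between the 10th and 90th percentiles of the 77 (997 to 5134). Of those 1005, 1.89% were higher and 4.98% lower by 2-fold or more. By 1.5-fold or more, 9.15% were higher and 12.3% lower, and 49.3% lay above 0. Their median was -0.00 and their interquartile range 0.55, against 0.39 for the 77 genes. With median centring the share at least 1.5-fold lower was thus smaller among the oxidative phosphorylation genes than among genes of like signal, and the share at least 1.5-fold higher was not. The higher count depended on the scaling, with 5 of 77 under quantile scaling, against 15.3% of all measured genes, and 4 of 76 under loess scaling, against 11.6%. Under these settings 2 and 3 members were at least 1.5-fold lower, against 17.97% and 25.11% of all measured genes. As deposited, 75 of 77 were at least 1.5-fold lower, against 90.7%. Within the 77 genes the log2 ratio still moved with signal (Spearman's rho 0.42 across genes that share both arrays, given as a description), and the part of signal in the results below was not tested beyond the values printed.

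**Figure D1:**
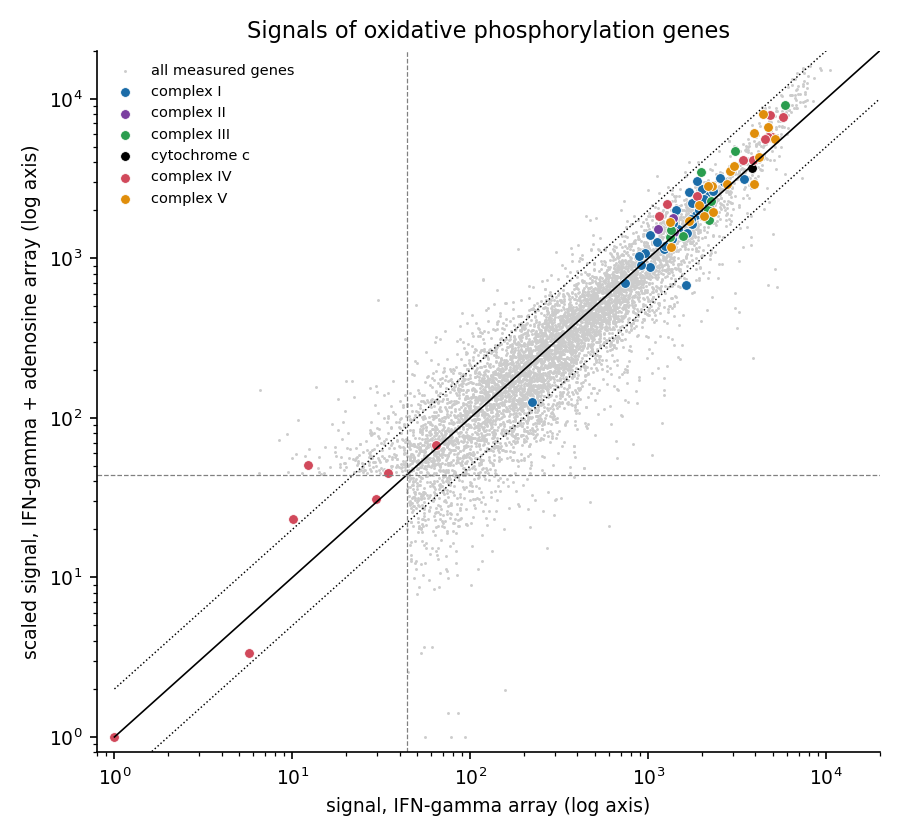
Scaled signal on the IFN-gamma plus adenosine array (vertical, log axis) against signal on the IFN-gamma array (horizontal, log axis) for the 81 genes, coloured by complex, over all measured genes in grey, with signals below 1 drawn at 1. The solid line marks equal signal, dotted lines 2-fold differences and dashed lines the floor of 44.0. Nearly all coloured points run along the solid line, Ndufc1 lies below the lower dotted line, and 7 complex IV genes lie at or near the floor or below it.

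The members at the 2 ends were from different complexes. With median centring, highest was Atp5g3, a gene for the c subunit of ATP synthase, with 8072 on the adenosine array against 4435 on the IFN-gamma array, a log2 ratio of 0.86. Its ratio was 0.46 with quantile and 0.48 with loess scaling, under 1.5-fold and below Cox8a (0.79 and 0.76) and Uqcrc1 (0.77 and 0.70). It was followed by Uqcrc1, a core protein of complex III, at 3498 against 1976 (log2 ratio 0.82). Cox8a, a small complex IV subunit, had 2180 against 1277 (0.77), and its other measured probe set gave 0.84. Cox6a1, also of complex IV, had a log2 ratio of 0.71 and Ndufb5, of the membrane arm of complex I, 0.69. At the lower end, Ndufc1, a small membrane-arm subunit of complex I, had 684 against 1630, a log2 ratio of -1.25 or 2.38-fold lower. Ndufb1, of the same arm, had 126 against 221 (-0.81), Atp5c1, the gamma subunit of ATP synthase, 2917 against 3909 (-0.42), Uqcrfs1 -0.33 and Atp5l -0.23. Of the 77 genes, 55 lay within 0.37 of 0, the SD of a log2 ratio estimated from probe sets of the same member.

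The c subunit forms the rotor ring of ATP synthase, and in mammals 3 genes, Atp5g1, Atp5g2 and Atp5g3, encode the same mature protein behind different targeting peptides. Atp5g1 had 1712 on the adenosine array against 1702 on the IFN-gamma array, a log2 ratio of 0.01. Atp5g2 had 2858 against 2169 (log2 ratio 0.40), and Atp5g3 had the 0.86 given above. The order was thus Atp5g3, Atp5g2, Atp5g1, with gaps of 0.47 and 0.39. The scatter between probe sets of a member gives an SD of 0.52 for a difference of 2 ratios, which neither gap exceeded. Spread between cultures and arrays is left out of that SD too. Because these genes encode 1 mature protein from separate promoters, their promoter windows are shown, with that of Ndufc1, the lowest gene, below them. Each window runs 5′ to 3′ from 250 bases before the RefSeq transcription start to 50 after it on GRCm38.p6, on the strand of the gene. Capitals mark a match on either strand to GCGCATGC (core of the site of nuclear respiratory factor NRF1), CCGGAAGT (core of ETS factors such as GABPA) or AAGATGGC (core of YY1). The windows lie at chr11:96075582-96075881, minus strand for Atp5g1, chr15:102670998-102671297, minus strand for Atp5g2, chr2:73911277-73911576, minus strand for Atp5g3 and chr3:51408906-51409205, minus strand for Ndufc1.
Atp5g1: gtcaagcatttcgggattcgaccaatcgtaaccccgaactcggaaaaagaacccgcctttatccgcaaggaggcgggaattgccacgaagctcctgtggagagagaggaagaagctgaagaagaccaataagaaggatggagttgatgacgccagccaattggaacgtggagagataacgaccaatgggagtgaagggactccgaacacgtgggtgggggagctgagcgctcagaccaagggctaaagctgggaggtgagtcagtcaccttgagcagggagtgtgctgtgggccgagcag
Atp5g2: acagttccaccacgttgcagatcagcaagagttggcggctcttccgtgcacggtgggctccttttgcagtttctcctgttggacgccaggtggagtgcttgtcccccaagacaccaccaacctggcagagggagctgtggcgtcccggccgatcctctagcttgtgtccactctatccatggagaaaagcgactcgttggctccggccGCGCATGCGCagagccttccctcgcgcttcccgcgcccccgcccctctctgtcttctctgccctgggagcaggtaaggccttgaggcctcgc
Atp5g3: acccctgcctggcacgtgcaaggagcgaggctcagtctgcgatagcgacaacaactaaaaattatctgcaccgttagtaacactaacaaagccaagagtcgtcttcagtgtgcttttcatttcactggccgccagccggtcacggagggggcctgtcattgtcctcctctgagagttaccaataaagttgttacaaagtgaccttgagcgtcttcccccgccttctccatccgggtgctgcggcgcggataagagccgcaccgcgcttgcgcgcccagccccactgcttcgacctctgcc
Ndufc1: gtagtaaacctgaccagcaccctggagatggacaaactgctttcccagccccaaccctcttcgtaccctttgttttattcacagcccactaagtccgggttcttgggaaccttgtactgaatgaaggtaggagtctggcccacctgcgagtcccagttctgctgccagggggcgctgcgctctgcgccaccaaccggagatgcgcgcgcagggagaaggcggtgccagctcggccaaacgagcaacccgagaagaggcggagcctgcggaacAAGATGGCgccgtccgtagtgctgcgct

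The Atp5g2 window held the NRF1 core, which matched on both strands with overlapping matches at positions -42 and -40 from the transcription start. Ndufc1 held the YY1 core 22 bases after its start. In the Atp5g1 and Atp5g3 windows these letters were not found. Promoter windows were matched for 66 of the 81 genes. Any of the 3 motifs was in 23 of the 66 (34.8%), against 9.85% of 26959 other genes. By motif, the NRF1 core was in 15.2% against 3.02%, the YY1 core in 13.6% against 3.16% and the ETS core in 7.58% against 4.30%. Measured members with any motif had a median log2 ratio of 0.05 (23 genes) and those with none 0.18 (40 genes). NRF1, GABPA and YY1 are known regulators of nuclear genes for the respiratory chain. A match is a description of the sequence and not of binding. The 81 genes lay on 19 chromosomes, with at most 9 on any of them (chromosome 7).

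The core subunits of complex I, which hold its flavin and iron-sulphur clusters and its ubiquinone site, lay on or slightly below the array median. Over 6 of them the median log2 ratio was -0.09, from -0.20 to 0.19, and none was 1.5-fold higher or lower by its brightest probe set. That median was -0.19 with the mean of all measured probe sets and -0.04 without probe sets of shared targets. Ndufs1, which carries iron-sulphur clusters, had 888 on the adenosine array against 1019 on the IFN-gamma array (log2 ratio -0.20). Ndufs3 had 1377 against 1554 (-0.17), Ndufs8, an iron-sulphur protein, 3142 against 3441 (-0.13), and Ndufs7, another, 1317 against 1357 (-0.04). The second probe set of Ndufs7 gave -0.40, and the other measured sets of Ndufs8 lay between -0.33 and 0.07. Ndufv1, which binds the flavin and NADH, had 1274 against 1120 by its brightest probe set (0.19). Its other probe sets gave -0.46 and -0.28, on the other side of 0. Ndufv2, an iron-sulphur partner of Ndufv1, had 2444 against 2176 by its brightest probe set (0.17). The other Ndufv2 probe sets were lower, at 811 against 1391 (-0.78) and 366 against 1043 (-1.51), so its level is not settled by these arrays.

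Accessory subunits of complex I, which surround the core, had a median of 0.13 over 27 genes. At least 1.5-fold higher were Ndufb5 (3037 against 1882) and Ndufb9 (2609 against 1698, log2 ratio 0.62), and at least 1.5-fold lower were Ndufc1 and Ndufb1. These 4 encode parts of the membrane arm. Second probe sets bear on 3 of them. That of Ndufc1 gave 940 against 1075, a log2 ratio of -0.19, so that its 2-fold difference rests on 1 probe set. The second set of Ndufb9 gave -0.38, on the other side of 0, and that of Ndufb5 gave 0.18. Ndufb1 was read by 1 probe set. Ndufc2, the partner of Ndufc1 in the membrane arm, had 2994 against 2679 (0.16), with a second probe set at -0.57. By their brightest probe sets the other 23 accessory genes lay between -0.20 (Ndufb8) and 0.48 (Ndufa3). Besides the second Ndufc2 set, second sets of Ndufb7 and Ndufab1 lay outside that range. That of Ndufb7 gave 1466 against 860 (0.77), where its brightest gave 0.07. The dimmer Ndufab1 set gave 1.58.

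Succinate dehydrogenase, the complex shared by the respiratory chain and the tricarboxylic acid cycle, had a median of 0.23 over its 4 genes, which was 0.056 with the mean of all measured probe sets and 0.068 without probe sets of shared targets. Sdha, the flavin subunit that oxidizes succinate, had 1458 on the adenosine array against 1391 on the IFN-gamma array (log2 ratio 0.07). Sdhb, the iron-sulphur subunit, had 2052 against 2214 (-0.11). The membrane anchors that bind ubiquinone were higher in signal with adenosine, Sdhc at 1536 against 1137 (0.43) and Sdhd at 1799 against 1377 (0.39). Their second, dimmer probe sets lay below 0, at -0.37 for Sdhc and -0.13 for Sdhd.

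Complex III had a median of 0.03 over 9 genes, with a wider range than complex I core subunits. Uqcrfs1, the Rieske iron-sulphur protein, was its lowest member at 1742 on the adenosine array against 2194 on the IFN-gamma array (log2 ratio -0.33). Cyc1, cytochrome c1, had 2289 against 2240 (0.03). At least 1.5-fold higher were Uqcrc1, Uqcrb and the hinge protein gene Uqcrh, at 4687 against 3066 (0.61). Uqcrb had 9097 against 5882 (0.63) by its brightest probe set, but 1668 against 1725 (-0.05) by its second. With quantile and loess scaling Uqcrb was at 0.08 and 0.18. Uqcrc2, the partner of Uqcrc1, had 2012 against 2165 (-0.11). Cycs, cytochrome c itself, had 3671 against 3829 (-0.06), and its other probe sets gave 0.11 and -0.32.

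Complex IV had the highest median of the 5 complexes with median centring and the brightest probe sets, 0.28 over 13 measured genes. All 13 lay above 0, against 44% of all measured genes and 49.3% of the genes of like signal. So did 11 of the 11 that were above the floor on both arrays (median 0.30), against 44.7% of all such genes. This was lost when the trend of the ratio with signal was removed by loess, where the complex IV median was -0.027 and 6 of 12 genes lay above 0, and with quantile scaling it was 0.16 with 9 of 13 above 0. With the mean of all measured probe sets 12 of 13 lay above 0. The share of all measured genes above 0 was not counted under loess, quantile or mean settings. The medians of all measured genes there were -0.14, 0 and -0.06. Complex IV members were bright, with a median signal of 3773 against 2040 for all 77 genes, and the 500 measured genes nearest in signal to each member left a median of 0.19 above them. At least 1.5-fold higher were Cox8a, Cox6a1 (7921 against 4850) and Cox7a2l, which takes part in respiratory supercomplexes, at 1851 against 1148 (0.69). Second probe sets of Cox6a1 and Cox7a2l gave -0.07 and 0.26. With quantile and loess scaling Cox6a1 was at 0.28 and 0.31, while Cox8a was at 0.79 and 0.76. Cox4i1, the ubiquitous form of subunit IV, had 5802 against 4982 (0.22), Cox5a 5597 against 4555 (0.30), Cox5b 4143 against 3885 (0.09) and Ndufa4 2445 against 1869 (0.39). Other measured probe sets gave 0.04 and -0.43 for Cox5a, and 0.12, 0.21 and -0.19 for Cox5b. Cox7a2 had 7680 against 5702 (0.43), but was at -0.07 with quantile and 0.01 with loess scaling.

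Isoforms of complex IV that belong to other tissues were dim, and of the 6 on the array only Cox7a1 was above the floor of 44.0 on both arrays. Cox7a1 and Cox6a2, forms of heart and skeletal muscle, had 67.4 on the adenosine array against 64.3 on the IFN-gamma array and 45.1 against 34.3. Cox4i2, the form of lung and low oxygen, had 50.5 against 12.2. Cox6a2 and Cox4i2 counted as measured through the adenosine array alone, so their place above 0 is set by the floor. Cox8b, a muscle form, had 0.56 against 0.40, and the testis forms Cox6b2 and Cox8c had 3.38 against 5.70 and 31.0 against 29.6. Cox7c, a ubiquitous subunit, was also below the floor by both its probe sets, the brighter with 23.4 against 10.1, so nothing is said of its level. Cox6b2, Cox7c, Cox8b and Cox8c are the 4 genes of the 81 that were not measured.

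**Figure D2:**
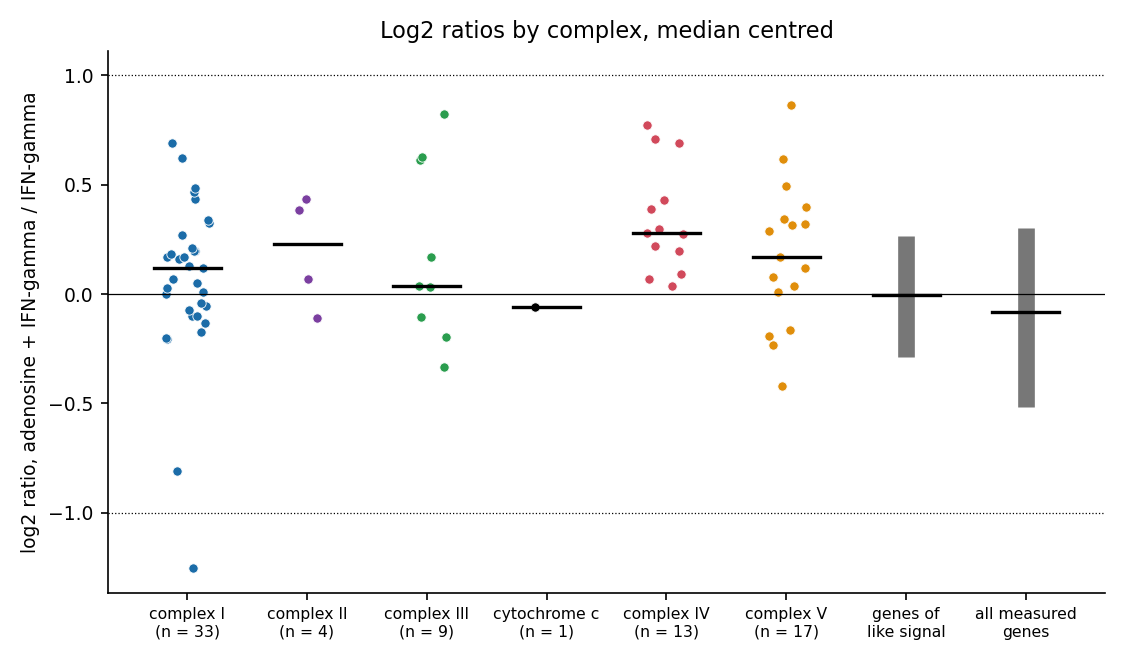
Log2 ratio (vertical), with adenosine over without, for each measured gene by complex (horizontal), with the median of each complex as a black bar, and for genes of like signal and all measured genes the median with the middle 50% as a grey bar. Complex medians run from 0.03 (complex III) to 0.28 (complex IV), cytochrome c is at -0.06, and Ndufc1 at -1.25 is the only point outside the dotted lines at 2-fold.

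Complex V had a median of 0.17 over 17 genes, with its parts on both sides of 0. In the F1 head and central stalk, where ATP is made, the catalytic beta subunit gene Atp5b had 6652 on the adenosine array against 4724 on the IFN-gamma array (log2 ratio 0.49). Atp5a1, the alpha subunit, had 6069 against 3950 (0.62), Atp5d, the delta subunit, 3527 against 2890 (0.29), and Atp5e, the epsilon subunit, 1685 against 1329 (0.34). Atp5c1, the gamma subunit that turns within the head, was the exception at -0.42, with no second measured probe set. The second probe set of Atp5a1 gave 2388 against 2621 (-0.13), and that of Atp5d 2845 against 1919 (0.57). With quantile and loess scaling Atp5b was at 0.18 and 0.13, Atp5a1 at 0.37 and 0.29 and Atp5d at 0.22 and 0.10. Atp5e kept its level, at 0.36 and 0.35. The peripheral stalk genes Atp5pb, Atp5h, Atp5j and Atp5o hold the head in place. By their brightest probe sets they had a median of 0.22 and lay between 0.08 and 0.32. Second sets gave 0.52 for Atp5h (3275 against 2287), 0.30 for Atp5pb and -0.11 for Atp5o. The 5 accessory genes of the membrane part had a median of -0.17 and lay between -0.23 (Atp5l) and 0.17 (Atp5mpl). All 5 of these were nearer to 0 than the probe set SD of 0.37.

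The 5 complex medians ran from 0.03 to 0.28. The SD among members was 0.37 in complex I, 0.26 in complex II, 0.41 in complex III, 0.25 in complex IV and 0.33 in complex V. Genes of a complex share both arrays and are not replicates, and no test of these differences was possible. Against the 500 measured genes nearest in signal to each member, the complex medians were 0.09 for complex I, 0.26 for complex II and 0.10 for complex III. They were 0.19 for complex IV and 0.14 for complex V. The median of those 500 was the same, 0.18, for members with signals from 5009 to 7490, so the brightest members were not matched in signal. The order of complexes changed with scaling, and under quantile and loess scaling complex II had the highest median (0.26 and 0.23). It changed with the probe sets too, and without those of shared targets complex V was highest (0.31, against 0.30 for complex IV).

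**Figure D3:**
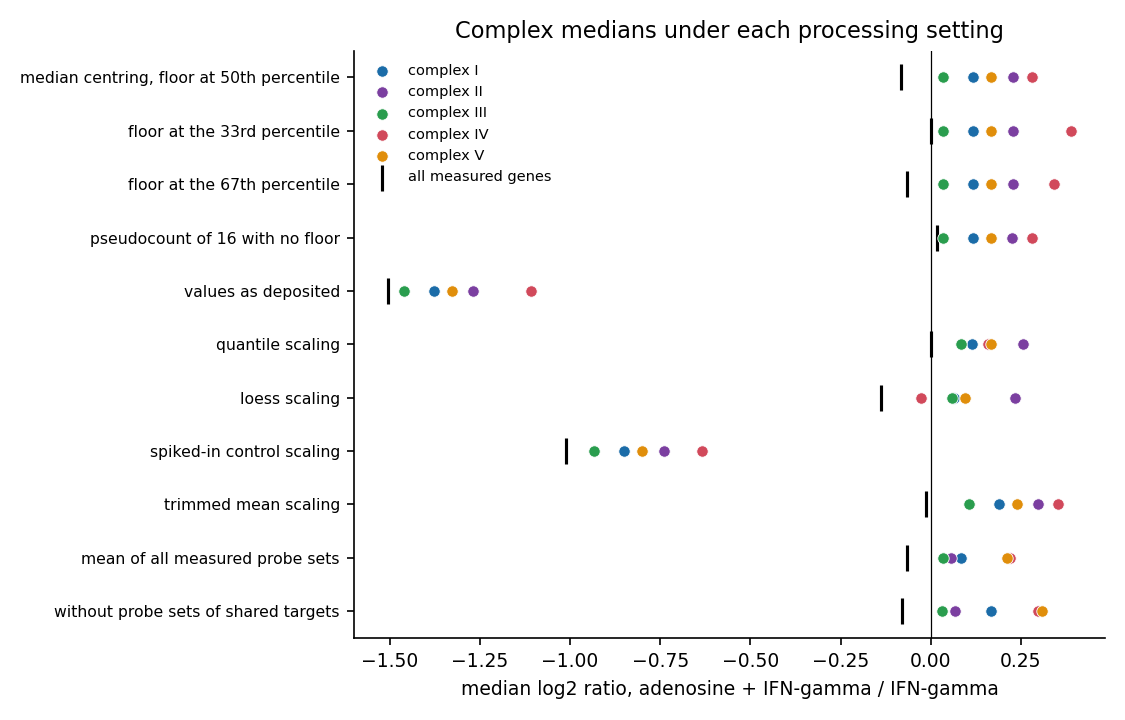
Median log2 ratio (horizontal) of each complex, as coloured points, and of all measured genes, as black ticks, under the processing settings (vertical). The setting that chose the probe set by the IFN-gamma array alone is not drawn. All points lie below 0 for deposited values and for scaling to the spiked-in controls, and complex IV lies below 0 also with loess scaling, where its median is -0.027.

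Probe sets of the same gene are the only repeat measurement here, and they share both arrays, so their scatter leaves out the spread between cultures and arrays. Both arrays exceeded the floor in 2 or more probe sets for 40 members, and the SD of a log2 ratio from the 2 brightest was 0.37, against 0.37 for 311 genes of like signal and 0.52 for 2375 genes in all. The pair was within 0.5 for 25 of the 40. In 10 genes the brightest and the second set lay on opposite sides of 0 by more than 0.5, and in all 10 the brightest was the higher: Sdhd, Cox6c, Ndufv1, Uqcrb, Ndufc2, Atp5a1, Cox6a1, Sdhc, Ndufv2 and Ndufb9. Neither count was made for other genes, so nothing is said of whether they are particular to these members. Over the 40 genes the brightest set was higher in 22 (55.0%), against 53.7% of the 311 genes of like signal and 45.8% of the 2375. Across the 135 measured probe sets of the members the median log2 ratio was 0.09, lower than the 0.17 of the brightest sets. It was 0.20 for the 55 sets specific to a transcript, and 0.01 for the 26 sets of the x kind, whose probes can bind other sequences.

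**Figure D4:**
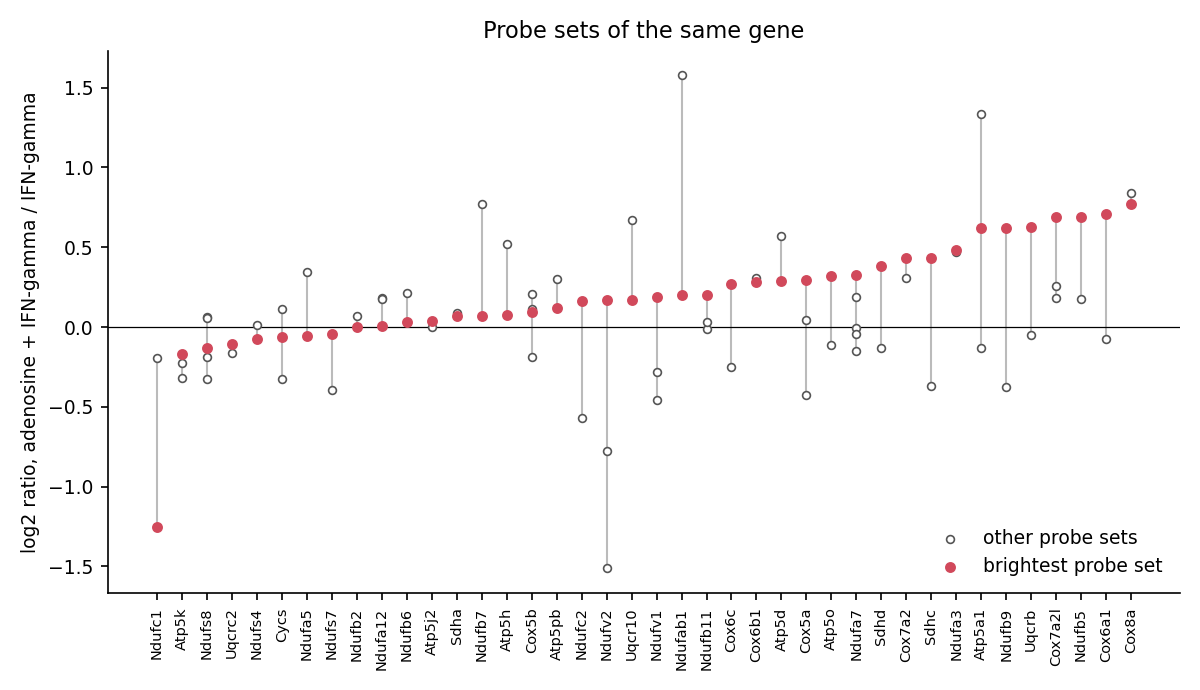
Log2 ratio (vertical), with adenosine over without, of every probe set that exceeded the floor on each array, for members with 2 or more such sets (horizontal, ordered by the brightest set). Filled points are the brightest set of a gene and open points the others. The widest spreads are in Ndufv2, from -1.51 to 0.17, Atp5a1, from -0.13 to 1.33, and Ndufab1, from 0.20 to 1.58.

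Other genes of mitochondrial energy metabolism were read beside them. Assembly factors, which build the complexes and are not part of them, had a median of -0.17 over 36 genes. Of the 36, 3 were lower and 1 higher by 2-fold or more, against 10.1% and 4.52% of all measured genes. Sdhaf1, which serves the iron-sulphur subunit of complex II, had 48.8 on the adenosine array against 217 on the IFN-gamma array, 4.44-fold lower, while Sdhb itself was at -0.11. Coa5 and Coa3, assembly factors of complex IV, were 2.80-fold and 2.04-fold lower. Ecsit, which takes part in complex I assembly and in innate immune signalling, was 2.02-fold higher (221 against 110). Assembly factors were dimmer than the subunits (median signal 302), and against the 500 measured genes nearest in signal to each their median was -0.02. With the floor at the 67th percentile Sdhaf1 was at -0.39 and Ecsit at 0.42, both under 2-fold.

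The tricarboxylic acid cycle and pyruvate entry list had a median of 0.12 over 19 genes. Of the 19, 1 was at least 2-fold higher and none 2-fold lower, against 4.52% and 10.1% of all measured genes. Idh2, the NADP-linked isocitrate dehydrogenase, had 1155 on the adenosine array against 574 on the IFN-gamma array (log2 ratio 1.01), and Pdk1, a kinase that inhibits pyruvate dehydrogenase, 140 against 239 (-0.78). Mitochondrial carriers had a median of -0.04 over 10 genes with none at 2-fold, from Slc25a11 (-0.73) to Vdac1 (0.51), and that median was 0.034 with trimmed mean scaling and -0.48 without probe sets of shared targets. The mean of all its measured probe sets put Vdac1 at -0.053. Of 14 regulators of mitochondrial gene expression, 1 was at least 2-fold lower, against 10.1% of all measured genes. The median of the 14 was -0.12, and quantile scaling brought it to 0.0048. The lowest was Tfb1m, a methyltransferase of mitochondrial ribosomal RNA, with 55.8 against 200.2 (-1.84), which was -0.28 with the floor at the 67th percentile. Nrf1, whose protein binds the NRF1 motif above, was the highest regulator at 213 against 119 (0.83). With the floor at the 67th percentile Nrf1 was at 0.37. Gabpa had a log2 ratio of -0.69.

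Mitochondrial ribosomal proteins, which make the subunits encoded by mitochondrial DNA, had a median of -0.12 over 74 genes. Of the 74, 4 were lower and 1 higher by 2-fold or more, against 10.1% and 4.52% of all measured genes. The extremes of the 74 were Mrpl17, 2.91-fold lower, and Mrps24, 2.20-fold higher. Cytosolic ribosomal proteins, among the brightest on the arrays (median signal 8325), had a median of 0.53 over 40 genes, with Rpl12 2.00-fold lower and Rpl27a 4.63-fold higher. Rpl27a was at 0.66, under 2-fold, with the floor at the 67th percentile. The list's median was 0.04 with loess and -0.05 with quantile scaling. Glycolysis genes had a median of 0.23 over 15, which was 0.037 without probe sets of shared targets and 0.37 with the floor at the 33rd or 67th percentile, with Pfkl, the liver-type phosphofructokinase, 2.24-fold higher and Pfkp, the platelet type, at -0.68. These lists differ in signal, so each gene was also set against the median of the 500 measured genes nearest in signal, members included. Medians were then 0.12 for oxidative phosphorylation, 0.10 for the tricarboxylic acid cycle and -0.03 for mitochondrial ribosomal proteins. They were 0.35 for cytosolic ribosomal proteins and 0.32 for glycolysis. The brightest genes, among them most cytosolic ribosomal proteins and the brightest of glycolysis, were not matched in signal by those 500. As deposited and with scaling to the spiked-in controls, the medians of all these lists were below 0. No test of the differences between lists was possible.

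**Figure D5:**
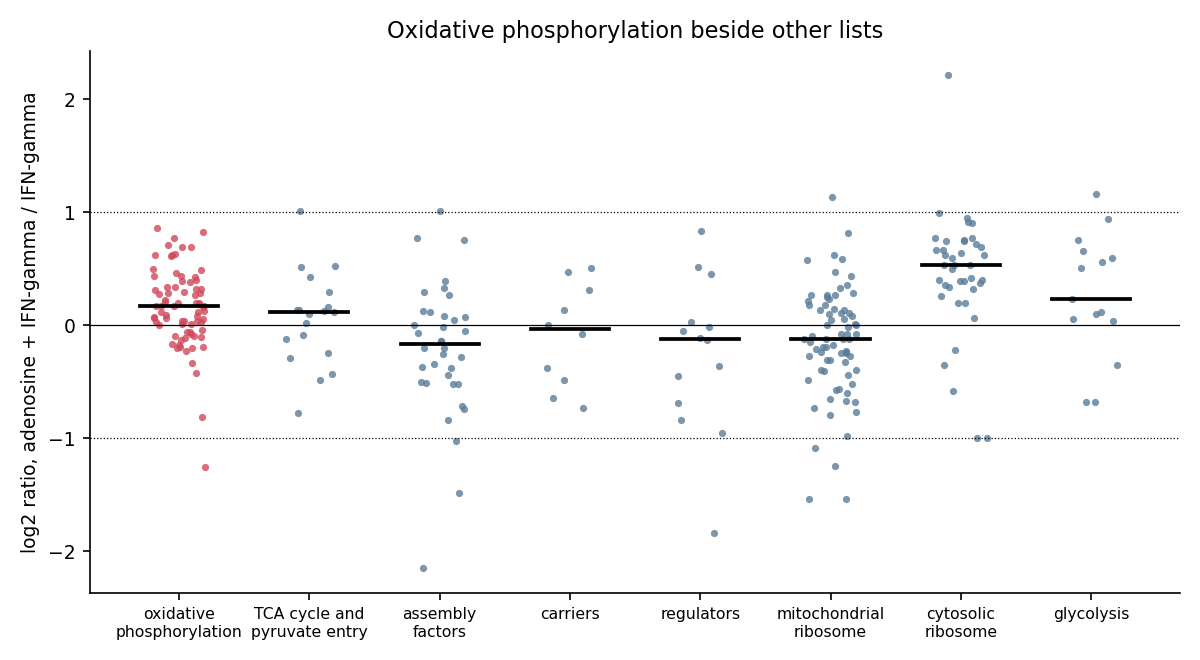
Log2 ratio (vertical), with adenosine over without, of each measured gene in oxidative phosphorylation and 7 other lists (horizontal), with the median as a black bar and 2-fold as dotted lines. The oxidative phosphorylation median is 0.17, those of assembly factors and mitochondrial ribosomal proteins are -0.17 and -0.12, and that of cytosolic ribosomal proteins is 0.53.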

How the data were processed

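Probe set intensity values were used as the authors deposited them, 1 linear value per array for 22690 probe sets; GCOS, the Affymetrix array software, is named per the submitters' processing notes, and for its signal algorithm and any scaling, details were not given in the sources used here. The 64 control probe sets were left out of gene results. Of the other 22626, 20380 had 1 gene symbol in the platform annotation, 691 had several and 1555 had none in the table used here. Members, lists and tests were chosen with earlier results of these data known, and the list rule for cytosolic ribosomal proteins was corrected afterwards to leave out paralogs that are not ribosomal. The band of like signal, the motifs and the choice of windows were also set after values were seen.

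Ratios were centred on their median over probe sets above the 50th percentile of deposited signals on both arrays, and the floor was then set on scaled signals. The probe set with the highest mean stood for its gene. All 81 members matched RefSeq tables of GRCm38.p6 by Entrez identifier; promoter sequences are RefSeq's. Named genes were the 5 highest and 5 lowest members, the extremes and brightest of each complex, core and catalytic subunits, tissue-restricted isoforms, members at 2-fold, members with discordant probe sets and the extremes of each other list; further members are given as context and were chosen after their values were seen. The calculation was tested on simulated data. Calculations used Python 3.11.15, numpy 2.4.6, pandas 2.3.3 and statsmodels 0.14.6 (loess span 0.4). Precision is limited by the number of arrays, 1 a treatment.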

Additional observations from a re-analysis of the deposited data

How the results depend on the processing

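No paired analysis was possible because 1 array stands for each treatment, which also leaves no replicate to drop. The scaling sets the direction of the members' median: with the values as deposited the median of the members was -1.33 (complexes I to V -1.38, -1.27, -1.46, -1.11 and -1.33, cytochrome c -1.56), 65 of 77 were at least 2-fold lower (5605 of 7117 of all measured genes) and 0 lay above 0. With spiked-in control scaling these were -0.80 (-0.85, -0.74, -0.93, -0.63 and -0.80, cytochrome c -1.03), 20 of 76 (3538 of 6975) and 0. Ndufc1 and Ndufb1 were below 0 in every setting run. Over all measured genes the medians were -1.50 and -1.01 under these settings, so the members lay 0.18 and 0.21 above them. Over the 12 settings run for the probe set values, the members' median exceeded that of all measured genes by 0.11 (quantile scaling) to 0.27. Loess scaling gave a members' median of 0.055, with all genes at -0.14, and a complex IV median of -0.027.

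The count at least 2-fold higher, 0, became 2 of 79 when the floor was the 33rd percentile (599 of 9177 of all measured genes). It became 1 of 81 with the pseudocount of 16 (326 of 12393) and 1 of 53 without probe sets of shared targets (259 of 5393). The count at least 2-fold lower, 1, became 0 with the mean of all measured probe sets (575 of 6822 of all measured genes). It was also 0 without probe sets of shared targets (545 of 5393) and at 3-fold. The 1.5-fold threshold gave 10 higher and 2 lower, but 5 higher with quantile, 4 with loess and 6 with the mean of all measured probe sets, and 75 lower as deposited and 56 with spiked-in control scaling. Without probe sets of shared targets 36 of 53 measured members lay above 0. The median of all measured genes was -0.08 there, and their share above 0 was not counted. As deposited, Ecsit (-0.48), Idh2 (-0.49), Mrps24 (-0.36) and Pfkl (-0.33) were lower with adenosine. Choosing the probe set by the IFN-gamma array alone, added after seeing the data, turned Mrps24 to -0.15. The cause of these changes was not tested.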

Other observations

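Probe sets that the annotation assigns to several genes were left out of all counts. Among them, that of Ndufs6 and Ndufs6b had 1337 on the adenosine array against 901 on the IFN-gamma array (log2 ratio 0.57), that of Ndufa11 and Ndufa11b 797 against 722 (0.14), and those of the Ndufb4 genes 1735 against 1599 (0.12) and 778 against 975 (-0.33). The x-kind probe set of Ndufab1 and its pseudogene had 888 against 1354 (-0.61), while the Ndufab1 set used above gave 0.20 and a dimmer set, at 148 against 49.5, gave 1.58.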
